A study of Homo sapiens with 20 samples.

Results

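The libraries described here are those that carried, or lacked, transcripts of the acinar cell of the exocrine pancreas, within a series on tumours of SW1990, an established human pancreatic cancer line. A library was called acinar-high where PRSS1, the gene of cationic trypsinogen, reached 5 CPM (counts of the gene in each M, or mega, of counts in the column) or more, and acinar-low where it stayed below 2 CPM. The rule found 5 acinar-high and 12 acinar-low libraries among 20, and 3 libraries between the cut-offs were left out of the comparison. The acinar-high libraries were heat-clearing 3, yin-nourishing 7, yin-nourishing 10, blood-activating 4 and blood-activating 6, and their values are given in this order throughout. The acinar-low libraries were heat-clearing 1, 2, 7 and 9, spleen-strengthening 2, 5, 6, 7 and 8, and yin-nourishing 1, 4 and 5. The libraries left out were blood-activating 1, 8 and 9.

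The series places SW1990 in a mouse model of pancreatic cancer and has 5 libraries for each of 4 treatments named after principles of traditional Chinese medicine: clearing heat (and removing dampness), strengthening the spleen, nourishing yin and activating blood. All libraries share the cell line, and none is labelled untreated or taken from healthy pancreas. Herbs, dose, duration, host strain, the site of the tumour, and whether replicates are separate animals or cultures are not stated in the labels, so p-values measure only the spread between these libraries. The table was counted on the human genome, and a count does not say whether its read came from human or mouse RNA.

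Acinar cells make and store the digestive enzymes of the pancreas: trypsinogens, chymotrypsinogens, elastases and carboxypeptidases for protein, lipases with colipase for fat, amylase for starch and nucleases for nucleic acids. The enzymes are packed as inactive precursors into zymogen granules together with trypsin inhibitors, lectins and granule membrane proteins. The acinar programme is kept by transcription factors such as PTF1A with its partner RBPJL, by BHLHA15 (MIST1), NR5A2 and GATA4. The pancreas also holds ducts, which carry the juice away, and islets, whose cells make insulin, glucagon, somatostatin and pancreatic polypeptide. SW1990 is a ductal tumour line and is not known as a source of digestive enzymes.

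PTF1A and RBPJL act in one complex that, as shown in mouse and rat, binds an E-box beside a second box. Promoters of acinar genes from RefSeq (GRCh38.p14, from 250 bases before to 50 after the gene's start) were therefore searched for CACCTG and TGGGAA, each on both strands; the motifs can overlap each other by the letters TG. CACCTG was found in 22 of 40 promoters (55%), which belong to 35 of the 47 acinar genes listed for this description, against 20.6% of 35116 RefSeq promoters. TGGGAA was found in 17 of the 40 (42.5%), against 24.0% of all. The promoters shown are those of PRSS1, which set the rule, of CPA1, which divided the libraries more sharply, and of CELA3A and CELA3B, a pair of related elastases that stood apart between the groups. They lie at chr7:142749222-142749521, chr7:130380244-130380543, chr1:22001407-22001706 and chr1:21976772-21977071, all on the plus strand, and capitals mark matches to either motif.
PRSS1: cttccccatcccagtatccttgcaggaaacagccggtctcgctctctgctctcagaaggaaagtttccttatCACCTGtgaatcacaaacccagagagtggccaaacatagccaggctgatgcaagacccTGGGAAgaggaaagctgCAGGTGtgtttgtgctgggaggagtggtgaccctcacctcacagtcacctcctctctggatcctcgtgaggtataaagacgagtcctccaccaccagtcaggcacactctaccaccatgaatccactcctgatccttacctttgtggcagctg
CPA1: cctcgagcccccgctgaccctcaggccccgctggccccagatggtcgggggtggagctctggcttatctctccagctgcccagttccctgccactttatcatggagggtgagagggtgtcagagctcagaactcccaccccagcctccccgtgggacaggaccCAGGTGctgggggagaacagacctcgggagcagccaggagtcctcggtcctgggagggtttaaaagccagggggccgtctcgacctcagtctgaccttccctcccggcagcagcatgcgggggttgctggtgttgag
CELA3A: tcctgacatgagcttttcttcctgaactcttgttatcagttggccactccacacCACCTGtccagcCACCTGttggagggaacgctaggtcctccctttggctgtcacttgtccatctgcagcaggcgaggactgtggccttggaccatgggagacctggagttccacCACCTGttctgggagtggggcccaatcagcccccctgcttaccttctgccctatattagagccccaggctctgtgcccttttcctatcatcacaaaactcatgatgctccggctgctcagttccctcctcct
CELA3B: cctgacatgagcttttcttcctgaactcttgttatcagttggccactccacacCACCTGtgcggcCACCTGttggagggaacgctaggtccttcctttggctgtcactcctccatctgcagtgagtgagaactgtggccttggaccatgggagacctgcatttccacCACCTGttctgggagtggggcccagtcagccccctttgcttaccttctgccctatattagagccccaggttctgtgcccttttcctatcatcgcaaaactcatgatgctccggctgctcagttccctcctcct
The elastase promoters each held 3 matches to CACCTG, PRSS1 held 2 and also 1 match to TGGGAA, and CPA1 held 1 match to CACCTG. A match is a description of the sequence and says nothing of binding in these samples.

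PRSS1, whose values chose the libraries, stood at 19.8, 7.75, 125, 6.22 and 112 CPM of the column total in the acinar-high libraries, against 0.307 to 1.73 CPM (median 0.736) in the acinar-low libraries. The nearest values around the upper cut-off were 6.22 CPM in blood-activating 4, inside it, and 4.34 CPM in blood-activating 8, outside it. The lower cut-off fell between 1.73 CPM in an acinar-low library and 3.49 CPM in blood-activating 9. Within the acinar-high libraries, yin-nourishing 10 and blood-activating 6 were far above the other 3. Values below are CPM after TMM scaling (trimmed mean of M-values) unless the column total is named.

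Other acinar markers did not divide the libraries in the same way as PRSS1. CPA1, the gene of carboxypeptidase A1, reached 9.98 CPM of the column total or more in each acinar-high library, but also 7.01 CPM in heat-clearing 2, 5.14 CPM in spleen-strengthening 2 and 7.64 CPM in spleen-strengthening 5, which PRSS1 placed among the acinar-low libraries. The other 9 acinar-low libraries had CPA1 below 2 CPM. Of the libraries left out, blood-activating 8 and 9 had CPA1 at 6.64 and 7.03 CPM and blood-activating 1 at 0.398 CPM. By CPA1, 10 libraries were therefore at 5 CPM or more and 10 below 2 CPM, with none between. CLPS, the gene of colipase, was at 5 CPM or more in 4 libraries and below 2 CPM in 15. The name acinar-low thus holds for PRSS1 and not for all acinar RNA, and results below are given with the acinar-low libraries split by CPA1 where it matters.

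**Figure D1:**
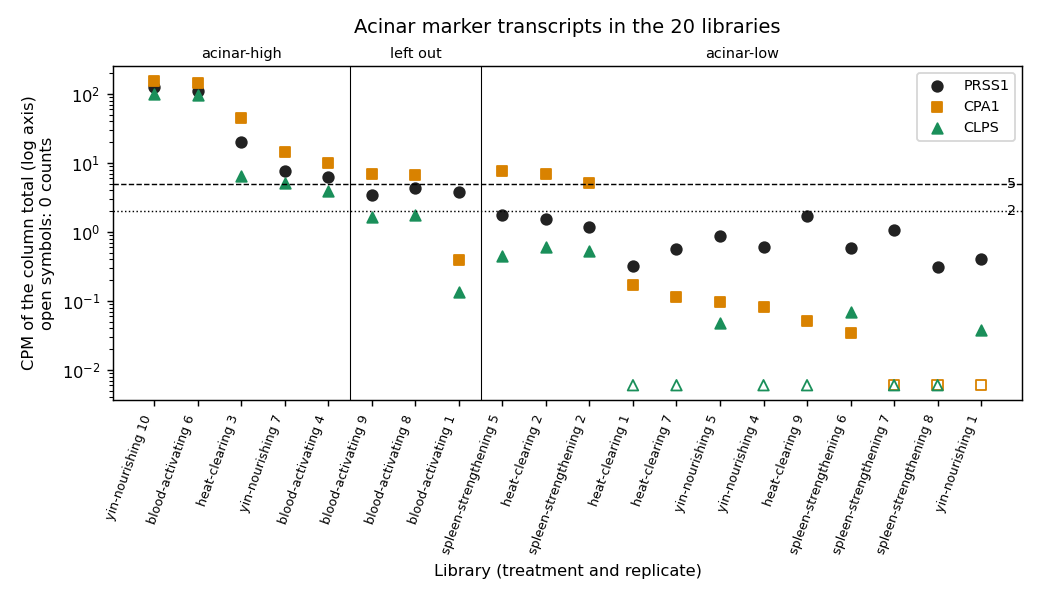
Level of PRSS1, CPA1 and CLPS in each of the 20 libraries, in CPM of the column total on a log axis, with the cut-offs of 5 and 2 CPM as lines and open symbols for 0 counts. CPA1 lies above 5 CPM in all 5 acinar-high libraries, in 2 of the 3 left out and in 3 acinar-low libraries.

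Depth did not separate the groups: total counts were 90.0 to 110.5 M (mega) in acinar-high libraries, against 81.7 to 134.96 M in acinar-low ones. Mitochondrial mRNA took 18.97 to 22.3% of the counts in acinar-high libraries, against 10.6 to 23.2% in acinar-low ones. RN7SK, an abundant small nuclear RNA, took 5% or more of the counts in 5 libraries, of which 3 were those left out, 2 were acinar-low (heat-clearing 1 and 2) and none was acinar-high. The sources used here do not explain the letter that ends each title, which was b in 3 acinar-high and 7 acinar-low libraries and C in 2 acinar-high and 5 acinar-low libraries.

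A gene was said to stand apart where every acinar-high library lay above, or below, every acinar-low library. Because the libraries were chosen by a measured transcript, this contrast is described without a test. Of 24790 rows of the table that passed the filter on low counts, 22 stood apart higher (0.0887%) and 11 lower (0.0444%). With a ratio of mean CPM of at least 2 in addition, 20 were higher (0.0807%), and with a ratio of 0.5 or less 5 were lower (0.0202%). Of the 47 acinar genes, all in the table, 40 passed the filter, 12 stood apart higher and none lower. PRSS1, which had to stand apart by the rule itself, is 1 of these 12 and of the 22, and no support is read from the counts. PNLIPRP2, also 1 of the 12, had no count in acinar-low libraries. It passed the filter only through other libraries and could not have stood apart lower. The amylase pseudogene AMYP1 and PCDH10, also among the 22, had 11 counts each over the acinar-low libraries and passed through other libraries too. Among the 11 lower, a pseudogene with a clone name had no count in acinar-high libraries and a small nucleolar RNA had 9. The direction of these genes was likewise fixed by the filter. The ratio of the mean in acinar-high to that in acinar-low libraries was above 1 for 45 of the 46 acinar genes that had one, with a median log2 ratio of 4.26; over all tested rows the median log2 ratio was 0.00 with quartiles of -0.23 and 0.21. In bulk RNA, fewer acinar cells and less RNA per acinar cell cannot be told apart.

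**Figure D2:**
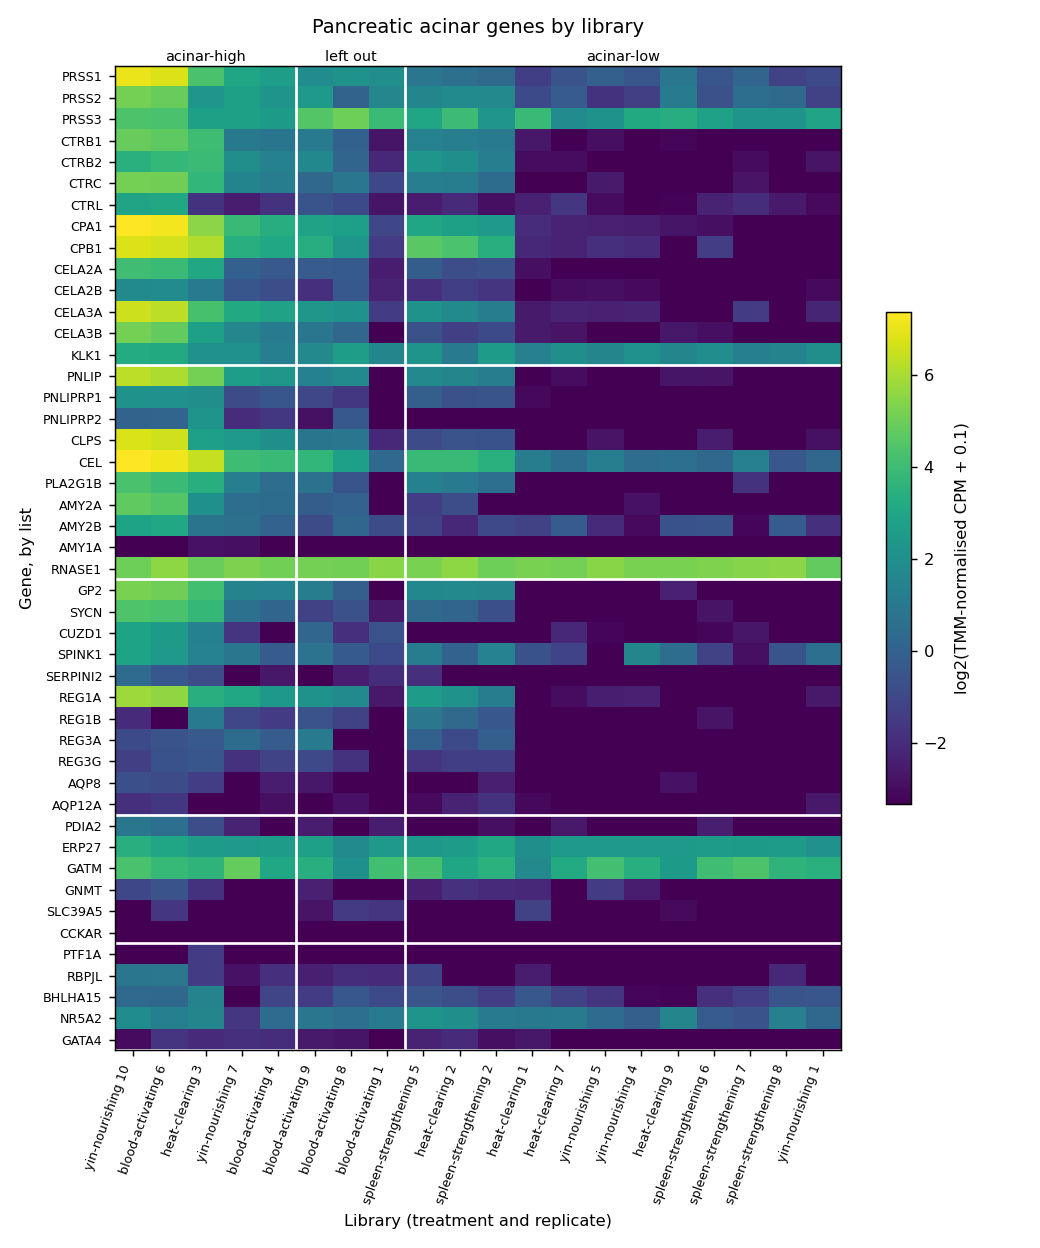
Levels of acinar genes (rows, grouped by list from proteases at the top to transcription factors at the bottom) in the 20 libraries (columns), as log2(TMM-normalised CPM + 0.1). The enzyme genes are brightest in yin-nourishing 10 and blood-activating 6 and dark in 9 of the 12 acinar-low libraries, while RNASE1, PRSS3, KLK1, ERP27 and GATM are seen in every library.

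Among the 15 acinar protease genes, 6 stood apart: PRSS1, PRSS2, CPA1, CELA2B, CELA3A and CELA3B. The list's median ratio was 30.5. Their summed level was 54.4 CPM at the lowest, 236 at the median and 711 at the highest acinar-high library, against 8.74, 13.3 and 65.7 CPM over acinar-low libraries, so that the sums overlapped.

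Among the trypsinogens, the separation of PRSS1 was fixed by the rule. PRSS1 (TMM scale) had 19.8, 7.88, 133, 6.24 and 112 CPM in acinar-high libraries, against 0.299 to 1.75 CPM (median 0.751) in acinar-low ones, a 61.7-fold ratio of means. PRSS2, the gene of anionic trypsinogen, had 4.74, 6.63, 34.6, 4.48 and 29.5 CPM in acinar-high libraries, against 0.193 to 3.31 CPM (median 0.981) in acinar-low ones, an 11.7-fold ratio. PRSS3, the gene of mesotrypsin, which is also made outside the pancreas, had 6.66, 6.69, 20.6, 5.58 and 19.6 CPM in acinar-high libraries, against 3.48 to 15.8 CPM (median 7.20) in acinar-low ones. PRSS2 stood apart, the PRSS3 values overlapped, and only yin-nourishing 10 and blood-activating 6 lay above every acinar-low library for it. PRSS1 lies at chr7:142749468-142753076 (GRCh38, GENCODE release 29), and 4.13% of its 50-base exon windows also occur in PRSS2, so part of their counts is uncertain.

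The carboxypeptidases cut amino acids from the end of a protein chain. CPA1 had 45.4, 14.7, 165, 10.01 and 146 CPM in acinar-high libraries, against 0 to 7.70 CPM (median 0.0911) in acinar-low ones, a 45.4-fold ratio. CPB1, the gene of carboxypeptidase B1, had 70.6, 10.4, 111, 8.48 and 99.1 CPM in acinar-high libraries, against 0 to 24.8 CPM (median 0.141) in acinar-low ones. CPB1 did not stand apart because heat-clearing 2, spleen-strengthening 2 and spleen-strengthening 5, the acinar-low libraries with CPA1, had 20.03, 10.6 and 24.8 CPM, more than blood-activating 4.

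The elastases, which cut elastin and other proteins, included the largest protease ratio, that of CELA3B. CELA3A had 19.1, 9.02, 93.7, 7.13 and 78.6 CPM in acinar-high libraries, against 0 to 4.39 CPM (median 0.105) in acinar-low ones, a 46.7-fold ratio. CELA3B had 6.49, 2.98, 34.9, 2.07 and 28.1 CPM in acinar-high libraries, against 0 to 0.526 CPM (median 0.0417) in acinar-low ones, a ratio of 122. CELA2B stood apart with a 30.5-fold ratio and at most 3.45 CPM in an acinar-high library, against at most 0.293 CPM in an acinar-low one. CELA2A, at 8.48, 0.880, 16.7, 0.681 and 15.7 CPM in acinar-high libraries, against 0 to 0.783 CPM in acinar-low ones, overlapped by a small margin. CELA3A shares 16.8% of its 50-base exon windows with CELA3B, and CELA2A shares 30.3% with CELA2B, so counts within each pair are uncertain.

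None of the chymotrypsinogen group stood apart, though each was highest in acinar-high libraries. CTRC, the gene of chymotrypsin C, which also breaks down trypsinogen, had 13.3, 2.72, 34.5, 2.12 and 32.6 CPM in acinar-high libraries, against 0 to 2.28 CPM with a median of 0 in acinar-low ones. CTRB1 had 16.4, 1.92, 29.02, 1.68 and 26.3 CPM in acinar-high libraries, against 0 to 2.57 CPM in acinar-low ones. CTRB2, which shares 25.2% of the exon windows of CTRB1, had 15.6, 3.77, 10.9, 2.47 and 13.8 CPM in acinar-high libraries, against 0 to 4.85 CPM in acinar-low ones. For CTRB2, heat-clearing 3 was the highest library, unlike for CTRB1. CTRL, a chymotrypsin-like protease, was at 7.38 CPM in yin-nourishing 10 and 8.39 CPM in blood-activating 6 but at 0.192, 0.0790 and 0.200 CPM in the other 3 acinar-high libraries, against 0 to 0.224 CPM in acinar-low ones. KLK1, the gene of tissue kallikrein, had 2.38 to 9.31 CPM in acinar-high libraries, against 2.10 to 5.71 CPM in acinar-low ones, and was present in every library.

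Of the 10 genes of lipases, amylases and nuclease, 6 stood apart: PNLIP, PNLIPRP2, CLPS, CEL, AMY2A and AMY2B, and the list's median ratio was 19.2. CLPS, whose product anchors pancreatic lipase to fat droplets, had 6.51, 5.19, 108, 3.93 and 95.6 CPM in acinar-high libraries, against 0 to 0.564 CPM (median 0.0193, 6 libraries at 0) in acinar-low ones, a ratio of 303. PNLIP, pancreatic lipase itself, had 35.4, 6.24, 79.2, 4.88 and 65.5 CPM in acinar-high libraries, against 0 to 3.18 CPM (median 0.0140) in acinar-low ones, a 55.1-fold ratio. In heat-clearing 3 PNLIP was several times CLPS, while in yin-nourishing 10 and blood-activating 6 CLPS was above PNLIP. PNLIPRP2, a lipase-related protein, had 4.49, 0.158, 0.956, 0.236 and 1.03 CPM in acinar-high libraries, and no count in any of the 12 acinar-low ones, so its level was at least 539.5-fold higher against a floor of 3 counts over the acinar-low libraries. PNLIPRP1, a related protein, had 3.82, 0.463, 4.38, 0.617 and 4.19 CPM in acinar-high libraries, against 0 to 0.851 CPM in acinar-low ones, which overlapped.

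CEL, the bile salt-stimulated lipase, had 85.2, 16.4, 163, 15.3 and 141 CPM in acinar-high libraries, against 0.653 to 14.6 CPM (median 1.79) in acinar-low ones. It had counts in every library, and the groups were separated by a narrow gap. PLA2G1B, the secreted pancreatic phospholipase, had 10.7, 2.26, 19.8, 1.33 and 15.6 CPM in acinar-high libraries, against 0 to 2.47 CPM in acinar-low ones, and overlapped.

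AMY2A, pancreatic amylase, had 3.99, 1.35, 27.1, 1.27 and 22.9 CPM in acinar-high libraries, against 0 to 0.470 CPM with 9 libraries at 0 in acinar-low ones, a ratio of 171. AMY2B had 1.65, 1.42, 7.22, 0.926 and 8.13 CPM in acinar-high libraries, against 0.0118 to 0.774 CPM in acinar-low ones. AMY1A, salivary amylase, had 0.0426 CPM in heat-clearing 3, 0.0339 CPM in yin-nourishing 7 and no count in the other acinar-high libraries, against no count in acinar-low ones. Counts of the amylase genes are uncertain among themselves, since 41.3% of the exon windows of AMY2A occur in AMY2B and 46.1% in the pseudogene AMYP1.

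RNASE1, the pancreatic ribonuclease, was the exception among the secreted enzymes. It had 30.7, 38.4, 31.9, 34.3 and 46.3 CPM in acinar-high libraries, against 27.6 to 46.4 CPM (median 37.3) in acinar-low ones, a ratio of 0.944. RNASE1 is also made by other cell types, endothelium among them.

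Granule proteins, inhibitors and lectins had a median ratio of 23.1, but none of the 11 stood apart. GP2, the main glycoprotein of the zymogen granule membrane, had 17.3, 2.65, 37.3, 2.60 and 33.3 CPM in acinar-high libraries, against 0 to 3.14 CPM with 8 libraries at 0 in acinar-low ones. SYCN, syncollin, had 13.9, 1.48, 21.2, 1.03 and 19.5 CPM in acinar-high libraries, against 0 to 1.19 CPM in acinar-low ones. In both genes the overlap came from the 3 acinar-low libraries that carried CPA1: GP2 was at 2.98 to 3.14 CPM and SYCN at 0.505 to 1.19 CPM there, while the other 9 acinar-low libraries had at most 0.0957 CPM of GP2 and 0.0491 CPM of SYCN. CUZD1, a zymogen granule protein, had 2.52, 0.203, 7.16, 0 and 5.56 CPM in acinar-high libraries, against 0 to 0.131 CPM in acinar-low ones. SPINK1, the trypsin inhibitor stored with the zymogens, had 2.54, 1.75, 7.30, 0.772 and 5.35 CPM in acinar-high libraries, against 0 to 2.91 CPM (median 0.761) in acinar-low ones. SERPINI2, a pancreatic serpin, had at most 1.25 CPM in an acinar-high library, against at most 0.179 CPM in an acinar-low one.

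The REG lectins, which acinar cells secrete and which are known to increase in pancreatic injury, did not follow one pattern. REG1A had 10.6, 8.41, 56.4, 5.12 and 48.1 CPM in acinar-high libraries, against 0 to 5.84 CPM (median 0.0477) in acinar-low ones. REG1B had 1.94, 0.384, 0.152, 0.263 and 0 CPM in acinar-high libraries, against 0 to 1.81 CPM in acinar-low ones, and so was lowest in yin-nourishing 10 and blood-activating 6, the libraries richest in REG1A. REG3A had 0.682, 1.28, 0.431, 0.772 and 0.570 CPM in acinar-high libraries, against 0 to 0.895 CPM in acinar-low ones. REG3G had 0.192 to 0.629 CPM in acinar-high libraries, against 0 to 0.293 CPM in acinar-low ones. The water channels AQP8 and AQP12A did not pass the filter and stayed at or below 0.513 and 0.237 CPM in acinar-high libraries, against 0.0936 and 0.196 CPM in acinar-low ones.

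Genes of acinar metabolism and of the endoplasmic reticulum moved less, with a median ratio of 1.56 over the list of 6 and none standing apart. GATM, which makes the creatine precursor, had 12.2, 28.95, 19.5, 8.07 and 14.4 CPM in acinar-high libraries, against 3.20 to 20.8 CPM in acinar-low ones. ERP27, a disulfide isomerase-like protein of the endoplasmic reticulum, had 5.20 to 10.7 CPM in acinar-high libraries, against 3.89 to 8.20 CPM in acinar-low ones. PDIA2, the pancreatic disulfide isomerase, had 0.490, 0.102, 1.74, 0 and 1.39 CPM in acinar-high libraries, against 0 to 0.0859 CPM in acinar-low ones, and did not pass the filter. GNMT, a glycine methyltransferase, had at most 0.559 CPM in an acinar-high library, against 0.278 CPM in an acinar-low one. SLC39A5, a zinc transporter, was found in blood-activating 6 alone of the acinar-high libraries, at 0.226 CPM, against up to 0.326 CPM in acinar-low ones. CCKAR, the cholecystokinin receptor that triggers enzyme secretion in rodents, had no count in either group.

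Of the acinar transcription factors, PTF1A and GATA4 were at or near 0 in both groups, RBPJL was so in most libraries, and NR5A2 had counts in every library. RBPJL had 0.267, 0.0452, 1.71, 0.182 and 1.76 CPM in acinar-high libraries, against 0 to 0.358 CPM with 9 libraries at 0 in acinar-low ones. PTF1A had 0.267 CPM in heat-clearing 3 and no count in the other 4 acinar-high libraries, against no count in the 12 acinar-low libraries. BHLHA15, which organises the secretory apparatus, had 2.67, 0, 1.17, 0.372 and 1.10 CPM in acinar-high libraries, against 0.00736 to 0.643 CPM in acinar-low ones. NR5A2, a nuclear receptor, had 2.90, 0.226, 3.56, 1.23 and 2.33 CPM in acinar-high libraries, against 0.564 to 4.52 CPM in acinar-low ones, a ratio of 1.02. GATA4 reached 0.204 CPM in acinar-high libraries, against 0.146 CPM in acinar-low ones. None of these 5 stood apart.

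Set against the 9 acinar-low libraries with CPA1 below 2 CPM, 25 of the 47 acinar genes lay higher in every acinar-high library. Of these, 21 did so also in the 3 acinar-low libraries with CPA1, and 8 of the 47 had no count in the 9. Over all 24790 tested rows, 50 (0.202%) lay higher in every acinar-high library than in the 9. PRSS1 and CPA1, whose values chose the libraries compared, are among the 25. Ratios of means grew accordingly: the ratio of CPA1 was 1267 in place of 45.4, that of CELA3A 490 in place of 46.7, and that of PNLIP 2675 in place of 55.1. This division of the acinar-low libraries was chosen after their CPA1 values were seen. CPA1 was also put in the place of PRSS1 with the same cut-offs, 10 libraries at 5 CPM or more against 10 below 2 CPM. Then 21 of 24790 tested rows (0.0847%) stood apart higher. Of these 21, 19 were acinar genes, CPA1 itself among them by construction. The other 2 were INS and CELP, a pseudogene of CEL, which had 0.918 to 21.5 CPM in the libraries with CPA1, against 0.0839 to 0.361 CPM in those without.

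The acinar lists together summed to 494, 196, 1323, 144 and 1172 CPM in acinar-high libraries, against 59.4 to 169.9 CPM (median 77.8) in acinar-low ones. At its highest, in yin-nourishing 10, this was 0.124% of the counts. In the acinar-low libraries without CPA1, RNASE1, GATM, PRSS3, ERP27 and KLK1, which were seen in every library, made up most of the sum. The sum is therefore no measure of acinar RNA there. The libraries left out had 99.0 CPM in blood-activating 1, 131 CPM in blood-activating 8 and 154 CPM in blood-activating 9. By this sum blood-activating 4, which PRSS1 called acinar-high, lay below 2 acinar-low libraries, heat-clearing 2 at 160 CPM and spleen-strengthening 5 at 169.9 CPM. Per length of exon, the leading acinar transcript was CLPS in yin-nourishing 10 and blood-activating 6, at 179 and 159 CPM per kilobase, and CEL in heat-clearing 3, at 35.7 CPM per kilobase. In yin-nourishing 7 and blood-activating 4 RNASE1 was highest of the listed genes, at 25.5 and 22.8 CPM per kilobase, but its level overlapped between the groups. CLPS followed at 8.64 and 6.54 CPM per kilobase.

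The make-up of the acinar RNA was compared as counts relative to CPA1 in the 10 libraries with 100 CPA1 counts or more, with exact 95% intervals that cover counting error only. CLPS counts were 0.144 (0.132 to 0.156), 0.354 (0.318 to 0.395), 0.654 (0.637 to 0.671), 0.393 (0.351 to 0.439) and 0.656 (0.639 to 0.674) of the CPA1 counts in acinar-high libraries. In the acinar-low libraries with CPA1 they were 0.0856 (0.0636 to 0.113) in heat-clearing 2, 0.104 (0.0785 to 0.137) in spleen-strengthening 2 and 0.0596 (0.0424 to 0.0817) in spleen-strengthening 5. Colipase thus varied 11.01-fold against carboxypeptidase A1, with the acinar-low libraries at the bottom of the range.

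CPB1 ran the other way. Its counts were 1.56, 0.707, 0.675, 0.847 and 0.680 of the CPA1 counts in acinar-high libraries, against 3.04 in heat-clearing 2, 2 in spleen-strengthening 2 and 3.22 in spleen-strengthening 5 among acinar-low ones. Blood-activating 8 and 9, which were left out, had 0.765 and 1.41. Over the 10 libraries the ratio to CPA1 varied 19.6-fold for CTRL, 9.52-fold for CTRB2, 7.15-fold for PRSS2, 4.76-fold for CPB1 and 1.78-fold for CELA3A. PRSS1 itself varied 3.65-fold and was lowest relative to CPA1 in the 3 acinar-low libraries, which the rule had chosen for low PRSS1. Outside these libraries, heat-clearing 9 had 264 counts of PRSS2 and 233 of PRSS1 with 7 of CPA1. The ratios of PRSS2 and PRSS1 can therefore include counts not tied to CPA1.

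REG1B made up 0.0428, 0.0262, 0.000919, 0.0263 and 0 of the CPA1 counts in acinar-high libraries, against 0.182 in heat-clearing 2, 0.122 in spleen-strengthening 2 and 0.235 in spleen-strengthening 5 among acinar-low ones. PNLIPRP2 made up 0.0989 of the CPA1 counts in heat-clearing 3 and 0.105 in blood-activating 8, but at most 0.0236 in the other acinar-high libraries and none in the acinar-low ones. The acinar RNA therefore differed between libraries in make-up and in amount.

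**Figure D3:**
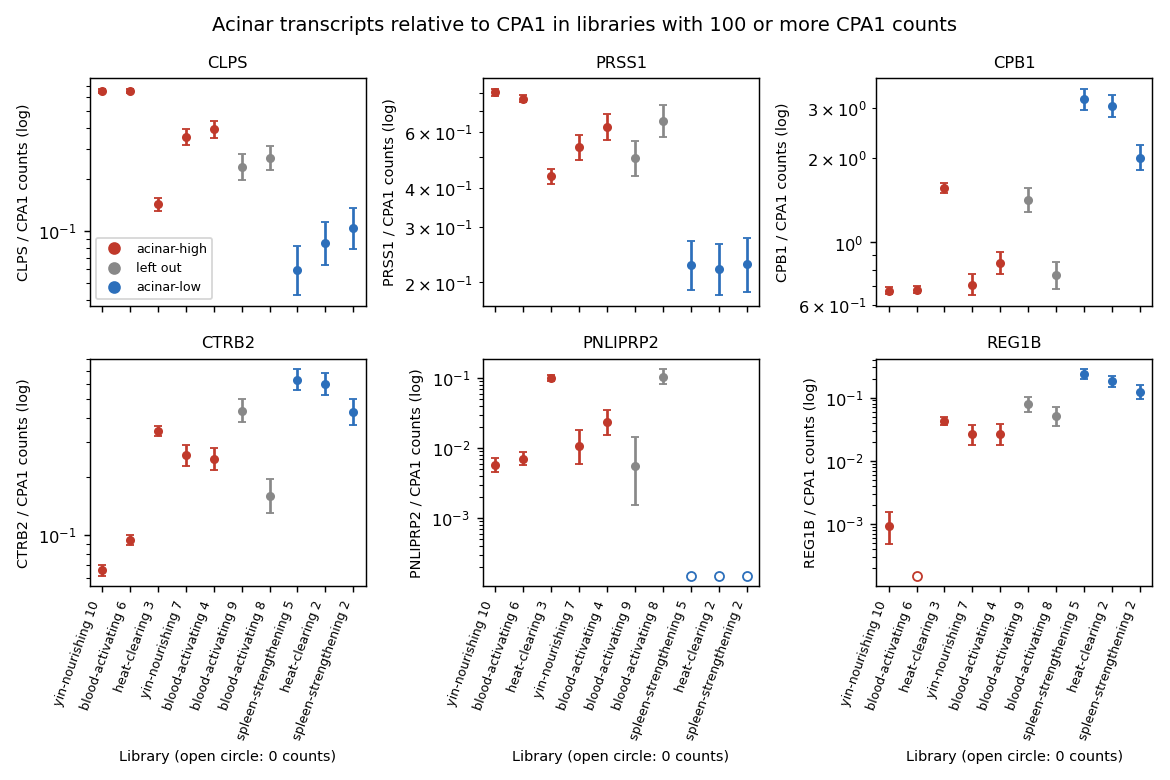
Counts of 6 acinar genes relative to CPA1 (log axes) in the 10 libraries with 100 CPA1 counts or more, acinar-high in red, left out in grey and acinar-low in blue, with exact 95% intervals for counting error and open circles for 0 counts. CLPS and PRSS1 are highest and CPB1, CTRB2 and REG1B lowest relative to CPA1 in yin-nourishing 10 and blood-activating 6.

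Among the 45 pairs of these 10 libraries, yin-nourishing 10 and blood-activating 6 had the smallest SD of the log2 ratio over their acinar genes. These genes include some seen in every library, GATM and RNASE1 among them. A pair that differs in acinar amount can therefore have a larger SD whatever its make-up. The summed acinar levels of this pair, 1323 and 1172 CPM, were also the highest, so the SD does not separate make-up from amount. Over 36 acinar genes their median ratio, yin-nourishing 10 over blood-activating 6, was 1.13, with quartiles of 1.06 and 1.25 and an SD of 0.27 on the log2 scale. The next smallest SD was that of yin-nourishing 7 and blood-activating 4, at 0.40, with a median ratio of 1.31 over 26 genes. Both pairs joined a yin-nourishing library of title letter b with a blood-activating library of title letter C. Over the 13125 other genes, taken relative to each gene's mean, the correlation was 0.06 within the first pair and 0.33 within the second. The highest of the 45 pairs had 0.74, between blood-activating 9 and heat-clearing 2, both RN7SK-rich. Among pairs without an RN7SK-rich library the highest had 0.35, between heat-clearing 3 and spleen-strengthening 2. This is a description, and the libraries share the cell line.

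Among the 30 islet genes, all in the table, 15 passed the filter and INS stood apart among these. INS, insulin, had 1.74, 0.711, 0.793, 0.517 and 1.02 CPM in acinar-high libraries, against 0 in 9 acinar-low libraries and at most 0.215 CPM in the other 3. Those 3 were the acinar-low libraries with CPA1, while the 9 without it had no INS count. TTR, transthyretin, which islet alpha and beta cells make along with liver, stood apart without passing the filter, with 0.0959, 0.384, 0.466, 0.336 and 0.323 CPM in acinar-high libraries, against no count in acinar-low ones, at least 126-fold higher against a floor of 3 counts over the group.

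The other islet hormones appeared in fewer libraries. PPY, pancreatic polypeptide, had 10.4 CPM in yin-nourishing 7 and 8.82 CPM in blood-activating 4 but 0.0640, 0 and 0.0861 CPM in heat-clearing 3, yin-nourishing 10 and blood-activating 6, against at most 0.0705 CPM in acinar-low libraries. The libraries with PPY were thus the pair with the second smallest SD over acinar genes, and not those with the most acinar RNA. GCG, glucagon, had 0.171, 0.248, 0.105, 0.172 and 0.0538 CPM in acinar-high libraries, against 0 in 10 acinar-low libraries and up to 0.178 CPM in the others. SST, somatostatin, reached 0.117 CPM in acinar-high libraries and IAPP, amylin, 0.440 CPM, in yin-nourishing 7, against no count of either in acinar-low ones. GHRL, ghrelin, had 0 to 0.531 CPM in acinar-high libraries, against 0 to 0.506 CPM in acinar-low ones.

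PAX6, an islet transcription factor that is also active elsewhere, did not follow, with 8.42 to 13.4 CPM in acinar-high libraries, against 6.27 to 13.8 CPM in acinar-low ones. ABCC8, a subunit of the beta cell potassium channel, had 0, 0.248, 0.152, 0.327 and 0.377 CPM in acinar-high libraries, against at most 0.0528 CPM in acinar-low ones. The median log2 ratio of the islet list was 0.53, and UCN3, a beta cell peptide, had no count in either group. Summed, the islet list was 41.0 to 47.9 CPM in acinar-high libraries, against 29.3 to 49.4 CPM in acinar-low ones.

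**Figure D4:**
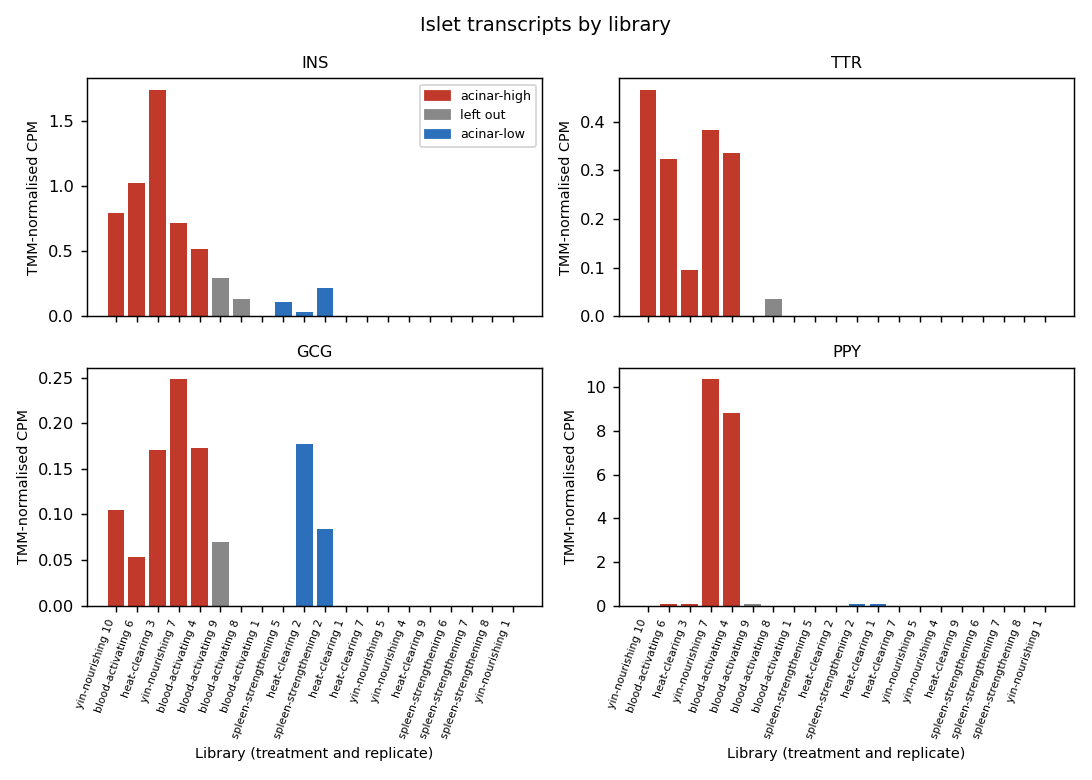
Levels of INS, TTR, GCG and PPY in TMM-normalised CPM in the 20 libraries, 1 bar each, acinar-high in red at the left, left out in grey and acinar-low in blue. INS is above 0 in all 5 acinar-high libraries and in the 3 acinar-low libraries with CPA1, while PPY is above 1 CPM in yin-nourishing 7 and blood-activating 4 alone.

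Of the 12 genes of normal duct, SLC4A4, the sodium bicarbonate cotransporter that feeds bicarbonate secretion, stood apart. It had 0.874, 0.847, 2.09, 0.844 and 1.46 CPM in acinar-high libraries, against 0 to 0.467 CPM (median 0.339) in acinar-low ones, a 4.86-fold ratio. Blood-activating 1, left out and low in CPA1, had 1.20 CPM of SLC4A4, more than heat-clearing 3, yin-nourishing 7 and blood-activating 4. Acinar-low libraries with CPA1 had 33 to 43 counts of SLC4A4, and those without 0 to 53, so it did not follow CPA1 there. CFTR, the chloride and bicarbonate channel of duct cells, had 0.463 to 1.14 CPM in acinar-high libraries, against 0 to 1.42 CPM in acinar-low ones. SCTR, the secretin receptor, had 0.554, 0, 0, 0.163 and 0.0646 CPM in acinar-high libraries, against 0 to 0.269 CPM in acinar-low ones. SOX9, a ductal transcription factor that the tumour line also expresses, had 45.5 to 84.6 CPM in acinar-high libraries, against 68.5 to 117 CPM in acinar-low ones. The median log2 ratio of the duct list was 0.49.

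No stromal gene stood apart. Since only 0.0887% of all tested rows stood apart higher, none among these few genes says little about stroma. None of the 19 genes of fibroblasts and stellate cells did. Their sum was 825 to 1149 CPM (median 899.9) in acinar-high libraries, against 774 to 1108 CPM (median 926) in acinar-low ones. Most of this sum came from MMP2, VCAN and SPARC, so it says little of the collagen genes. COL1A1, the main chain of type I collagen, had 13.3 to 28.1 CPM in acinar-high libraries, against 15.5 to 49.2 CPM in acinar-low ones. COL1A2 had 0.667 to 2.17 CPM in acinar-high libraries, against 0 to 3.53 CPM in acinar-low ones. COL3A1 had 0.732 to 2.90 CPM in acinar-high libraries, against 0.0321 to 4.98 CPM in acinar-low ones. Split by CPA1, COL3A1 counts were 68 to 263 in acinar-high libraries and 422 to 445 in acinar-low libraries with CPA1. In acinar-low libraries without CPA1 they were at most 37, except for 393 in heat-clearing 1. COL1A2 and PDGFRB divided in a similar way, while MMP2 and VCAN did not. DCN had 15 to 196 counts in acinar-high libraries, 12 to 37 in acinar-low ones with CPA1 and 0 to 116 in those without. The 11 smooth muscle and pericyte genes, none of which stood apart, summed to 33.8 to 41.5 CPM in acinar-high libraries, against 36.5 to 105.7 CPM in acinar-low ones. Of the 17 endothelial genes none stood apart, and their sum was at most 29.7 CPM (median 28.3) in acinar-high libraries, against at most 39.3 CPM (median 28.9) in acinar-low ones. PECAM1, an adhesion molecule of endothelium, had 7.17 to 10.9 CPM in acinar-high libraries, against 6.07 to 20.5 CPM in acinar-low ones.

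No immune gene stood apart either, beside the same small share of all rows. The 19 macrophage and monocyte genes summed to 251 to 323 CPM in acinar-high libraries, against 185 to 329 CPM in acinar-low ones. LAPTM5, CD68, CTSS and LYZ made up most of these sums. AIF1, ITGAM, TYROBP and FCER1G had at most 20 counts in any library of the 2 groups. CD68, a lysosomal protein abundant in macrophages, had 43.0 to 62.6 CPM in acinar-high libraries, against 36.2 to 60.6 CPM in acinar-low ones, and the receptor CSF1R stayed at or below 1.07 CPM in acinar-high and 0.951 CPM in acinar-low libraries. The 11 neutrophil genes summed to 28.5 to 122 CPM in acinar-high libraries, against 12.0 to 106 CPM in acinar-low ones, almost all from S100A8 and S100A9, which epithelium also makes. The T and NK cell list summed to 26.2 to 36.2 CPM in acinar-high libraries, against 27.4 to 40.8 CPM in acinar-low ones, mostly from CD4 and LCK. CD3D and CD3E, chains of the T cell receptor complex, were at or below 0.172 and 0.0640 CPM in acinar-high libraries, against 0 and 1.10 CPM at most in acinar-low ones. The B and plasma cell list summed to 4.54 to 9.30 CPM in acinar-high libraries, against 1.05 to 11.7 CPM in acinar-low ones. MS4A1 was at 0 in every acinar-high and in 11 of 12 acinar-low libraries. Split by CPA1, C1QB, C1QC and IGKC had counts in every acinar-high library and every acinar-low library with CPA1. C1QC counts were 15 to 29 and 25 to 34 there, and IGKC counts 11 to 68 and 63 to 171. Of the acinar-low libraries without CPA1, heat-clearing 1 had 36 and 42 counts and the others 0. CD68, LAPTM5 and CD4 did not divide in this way.

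The remaining lists had no member standing apart. Their median log2 ratios were 1.18 for mast cells, -0.87 for red blood cells, 0.29 for adipocytes, -0.16 for Schwann cells, -0.07 for skeletal muscle, 1.15 for hepatocytes, -0.25 for intestinal epithelium, -0.76 for mesothelium and 0.78 for skin keratinocytes, most of them over genes near 0 CPM. ALB, the main product of hepatocytes, reached 1.19 CPM in an acinar-high library, against 0.115 CPM at most in an acinar-low one. The tumour epithelium list, by contrast, was abundant, at 12349 to 18550 CPM in acinar-high libraries, against 11998 to 18516 CPM in acinar-low ones. EPCAM had 88.1 to 101 CPM in acinar-high libraries, against 75.3 to 127 CPM in acinar-low ones. Genes of secretion and folding in the endoplasmic reticulum, a large compartment in acinar cells, summed to 2061 to 2521 CPM in acinar-high libraries, against 2185 to 2637 CPM in acinar-low ones, and mitochondrial mRNA had a median log2 ratio of 0.16.

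**Figure D5:**
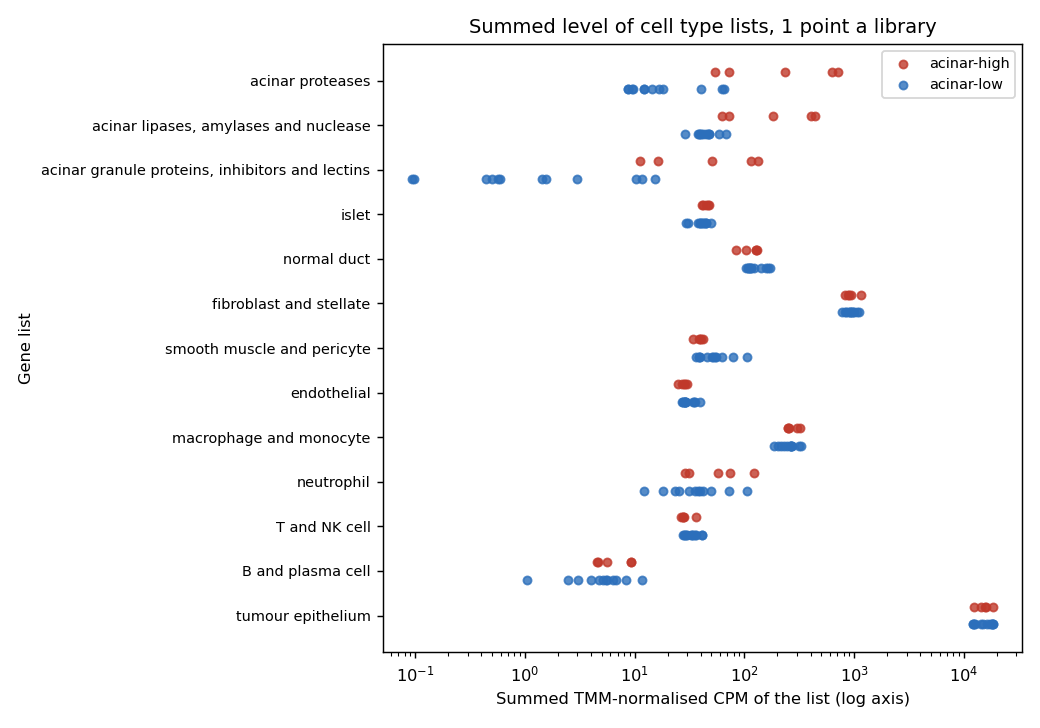
Summed TMM-normalised CPM of 13 cell type lists on a log axis, 1 point a library, acinar-high (red) above acinar-low (blue) in each row. The acinar lists spread over a wide range and are higher in most acinar-high libraries, while the fibroblast, macrophage, T cell and tumour epithelium lists overlap. The fibroblast, macrophage and T cell sums rest mostly on a few abundant genes.

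Outside the acinar lists, INS, SLC4A4 and 8 genes of no list stood apart higher. AMYP1, an amylase pseudogene beside AMY2A, had 0.650, 0.181, 6.13, 0.172 and 5.18 CPM in acinar-high libraries, against 0 to 0.103 CPM in acinar-low ones. DOCK10, a guanine nucleotide exchange factor, had 1.52 to 2.80 CPM in acinar-high libraries, against 0.338 to 1.51 CPM in acinar-low ones, a 2.42-fold ratio. ANTXR1, an anthrax toxin receptor that binds collagen, had 2.65 to 3.80 CPM in acinar-high libraries, against 0.568 to 2.34 CPM in acinar-low ones, a 1.94-fold ratio. SNX31, a sorting nexin, and NUDT13, a nudix hydrolase, stood apart with ratios of 3.83 and 1.84, and PCDH10, GUCY1A1 and DCST1 did so at means below 0.5 CPM, outside the rule for naming genes.

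The 11 genes that stood apart lower were in no list, and 9 had a mean of 0.5 CPM or more. XPO6, a nuclear exporter of actin, had 105, 87.0, 111, 97.5 and 110.7 CPM in acinar-high libraries, against 112 to 136 CPM (median 118) in acinar-low ones, a ratio of 0.854. ICMT, TNPO3 and NMT1, which act in protein methylation, nuclear import and myristoylation, had ratios of 0.868, 0.835 and 0.830. ALKBH8 had a ratio of 0.711, GRAMD4 of 0.635, ZNF620 of 0.457 and the keratin pseudogene KRT8P46 of 0.438. None of these was a marker of a cell type in the lists.

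The counts of genes standing apart moved with the libraries used. Without heat-clearing 3, 50 genes stood apart higher and 19 lower, and without yin-nourishing 10, blood-activating 4 or blood-activating 6, 37, 38 or 34 did so higher. Without blood-activating 4, blood-activating 6 or spleen-strengthening 6, 17, 31 or 17 stood apart lower. The number of acinar genes among them stayed between 12 and 17 when any 1 library was left out. Without the RN7SK-rich libraries it was 12 of 29 genes higher. Among libraries of title letter b it was 17 of 270 genes higher (1.09% of those tested), and among those of letter C, with 2 acinar-high libraries, 21 of 1447 (5.84%). With the 3 libraries left out counted as acinar-high, 2 genes stood apart higher, of which 1 was an acinar gene, PRSS1 itself. Blood-activating 1 had CPA1 at 0.384 CPM and no count of PNLIP, GP2 or AMY2A.

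The treatment labels were not used by the rule, so they could be tested. Acinar-high libraries were 1 of 5 heat-clearing, none of 5 spleen-strengthening, 2 of 5 yin-nourishing and 2 of 5 blood-activating libraries, the other 3 blood-activating libraries being those left out. Over the 17 libraries with a status, the share did not differ between treatments past the threshold of 0.05 (Fisher-Freeman-Halton exact test, p = 0.0829). The exact p was 0.0117 with the 3 left-out libraries counted as acinar-high but 0.678 with them counted as acinar-low. With CLPS in place of PRSS1 in the rule it was 0.678, and with CPA1 it was 0.675. It was 0.0247 without heat-clearing 3 and 0.0476 without yin-nourishing 1, 4 or 5, against 0.354 without blood-activating 4 or 6, so the result turns on single libraries and on where the left-out ones are put. By title letter the share did not differ past the threshold either (Fisher's exact test, two-sided, p = 1).

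The acinar lists summed to 172 ± 185 CPM in heat-clearing, 105.5 ± 40.1 CPM in spleen-strengthening, 346 ± 549 CPM in yin-nourishing and 340.0 ± 465 CPM in blood-activating libraries (SD, n = 5 each). These sums include RNASE1 and other genes seen in every library. The SD exceeded the mean in all but the spleen-strengthening group, as 1 library carried most of the sum in each of the other groups. In edgeR's quasi-likelihood test of any difference among the 4 treatments, none of the 24790 rows passed an adjusted p of 0.05 (0%), and 3824 had an unadjusted p below 0.05. Among the 40 acinar genes tested none passed, 3 had an unadjusted p below 0.05 (PRSS3, CTRL and GATM) and the smallest Benjamini-Hochberg adjusted p in edgeR was 0.191. DESeq2 called 1233 of the 24790 rows and 2 of the 40 acinar genes, a similar share, so this says nothing particular of acinar genes. Among the 15 islet genes tested none passed in edgeR, none had an unadjusted p below 0.05, and the smallest adjusted p was 0.329.

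For the title letter, with treatment as a covariate, edgeR called 1 of the 24790 rows (0.00403%), and 1608 had an unadjusted p below 0.05. No acinar gene passed or had an unadjusted p below 0.05, with a smallest adjusted p of 0.785 in edgeR. The row called was UCHL1, a neuronal ubiquitin hydrolase, with a log2 fold change of -7.04 ± 1.06 (SE; b over C) and an adjusted p of 0.0330 in edgeR. UCHL1 was at 0 counts in 12 of 13 libraries of letter b and had 4 counts in the other, against 0 to 66 counts in the 7 of letter C, so the fitted fold change is no measure of size. With replicate number as a block, with a stricter filter (1 CPM in 5 libraries) or without the covariate edgeR called no row, and in 16 of the 20 fits that left out 1 library it called none. Of the acinar-high libraries, blood-activating 4 and 6 had UCHL1 at 0.599 and 0.559 CPM and the other 3, of letter b, at 0.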

How the data were processed

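RNA was measured by sequencing in 20 libraries of SW1990 tumours. Per the labels' protocols, TRIzol was used for extraction and a directional kit for the libraries, after depletion of ribosomal RNA. The submitters' processing notes name HISAT2, StringTie and hg38. Versions, annotation, strand setting and handling of mouse reads were not found there. The deposited table holds raw counts per gene in 60656 rows, of which 1047 repeat a symbol; for a repeated list gene the row with the larger total was used.

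Libraries were grouped by PRSS1 in CPM of the column total. Other values are CPM with TMM scaling from edgeR 4.0.16 (R 4.3.3). The edgeR filter (minimum count 10) left 24790 rows. The contrast chosen by PRSS1 was described by groups that do not overlap and by ratios of means; against a group without counts, a floor of 3 counts over the group was used. Treatment and title letter were tested with edgeR's quasi-likelihood F-test over all rows, Benjamini-Hochberg adjusted, and with exact tests of the status. DESeq2 1.42.0 was an alternative, as were other normalisations, filters, markers, cut-offs and each library left out. Total counts were 81.7 to 134.96 M per library; intervals are exact and, without molecular identifiers, cover counting error alone. On simulated data the treatment test recovered 52% of 4-fold and 33% of 2-fold changes with 1 false call among 86, and the letter test 49% and 38% with 5 false calls among 92.

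The libraries, gene lists, tests and alternatives were chosen with earlier results of these data known. Named genes were all acinar genes and islet hormones, the first 3 members of other lists and list members that stood apart with a ratio of 2, and, with a mean of 0.5 CPM or more, the 20 highest and 10 lowest ratios among the genes outside the acinar lists that stood apart, and up to 6 genes with the smallest p in each test; the text describes part of these, and 1 acinar gene is not reported here. TTR, ABCC8, PAX6, SOX9, UCN3, CELP, PCDH10, GUCY1A1 and DCST1 were chosen after their values were seen. Deviations from treatment means had correlations of -0.05 to 0.17 between same-numbered replicates, and no pairing was used in the main tests. Weak correlations cannot exclude pairing, and the meaning of the number is not stated.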

Additional observations from a re-analysis of the deposited data

Results flagged for a closer look

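Within the 5 acinar-high libraries, 2 genes had a library far from the others by Dixon's criterion: PNLIPRP2 at 4.49 CPM in heat-clearing 3, and REG1B at 1.94 CPM in the same library. Within treatments, the summed acinar lists had such a library in heat-clearing 3 at 494 CPM, in yin-nourishing 10 at 1323 CPM and in blood-activating 6 at 1172 CPM. In all, 5 of 48 groups of values met the criterion. The groups share libraries chosen by PRSS1 and genes whose levels move together, so this count cannot be set against a chance rate. The 3 libraries outside the comparison carried CPA1 counts: 0.384 CPM in blood-activating 1, 6.48 CPM in blood-activating 8 and 7.08 CPM in blood-activating 9. The causes of these values were not tested.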

How the results depend on the processing

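Between acinar-high and acinar-low libraries 22 genes stood apart higher, 11 lower and 12 acinar genes higher. The counts higher were 13 with a strict filter (1 CPM in 5 libraries), 2 with the left-out libraries as acinar-high, 14 with them as acinar-low, 269 with cut-offs of 10 and 1 CPM, 270 in letter b alone, 1447 in letter C alone and 50 against the acinar-low libraries with CPA1 below 2 CPM, a setting added after seeing the data. The counts lower were 0 with CPA1 in place of PRSS1, 0 and 7 with the left-out libraries as acinar-high and acinar-low, 228 with the other cut-offs, 270 in letter b and 1103 in letter C. Acinar genes higher were 19 with CPA1, 1 with the left-out libraries as acinar-high, 29 with the other cut-offs, 21 in letter C and 25 in the added setting. Smaller groups are easier to separate. Leaving out 1 library gave 23 to 50 higher, 11 to 31 lower and 12 to 17 acinar genes. The libraries being chosen by an acinar transcript, the direction of the acinar ratios is no sign of stability. In the added setting 7 ratios moved beyond the spread between libraries: AMY2A 2379, CELA2B 170.0, CELA3A 490, CELA3B 631, CLPS 2457, CPA1 1267 and PNLIP 2675.

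The exact p of status by treatment was 0.0829, 0.0117 with the left-out libraries as acinar-high, 0.678 with them as acinar-low, 0.678 with CLPS and 0.675 with CPA1 in place of PRSS1, and 0.0247 to 0.354 with 1 library left out. The treatment test called 0 rows in edgeR, 1 with the replicate block, 1 without the RN7SK-rich libraries, 1233 with DESeq2 and 0 to 378 with 1 library left out, the highest without heat-clearing 3 (10 without blood-activating 4). Without the 5 acinar-high libraries, a setting added later, it called 2794, of which 3 were acinar genes. No result about acinar genes is read from that count. The 3 blood-activating libraries then left are all RN7SK-rich. The letter test called 1 row in edgeR, 12 without a filter, 0 with the strict filter, 0 with the replicate block, 709 without RN7SK-rich libraries, 0 without the covariate, 118 with DESeq2, 0 without acinar-high libraries and 0 to 70 with 1 library left out, the highest without heat-clearing 2. The cause was not tested. Genes near 0 CPM rest on few counts, which limits what can be said of PTF1A, GATA4 and islet hormones.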

Other observations

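RMRP, the RNA of a mitochondrial RNA-processing ribonuclease, has 2 rows in the table. The first was at 432 CPM in yin-nourishing 10 and 273 CPM in blood-activating 6, the libraries with the most acinar RNA, and at most 0.317 CPM in the other 18. Both rows together were at 2975 and 2441 CPM in these libraries, against up to 2613 CPM in an acinar-low library, so the sum shows no such gap in blood-activating 6.

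Genes held by 1 pair of libraries, at 0.5 CPM or more in both and 10 times the highest of the other 18, were counted for all 190 pairs after these values were seen. In 172 pairs there was none. Yin-nourishing 10 and blood-activating 6 had the most, 3: RMRP's first row, CLPS and CTRL. Yin-nourishing 7 and blood-activating 4 had 1, PPY. These are values only; what joins such pairs across treatments and title letters was not tested.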
